A study of Homo sapiens with 4 samples.

Results

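Skipped exons of 9 transcription factor genes were followed in HEK293T cells, a human embryonic kidney line: MEF2A, MEF2D, NFYA, TCF3, TCF12, TEAD1, FOXM1, REST and NRF1. These genes were chosen by name for their known alternative exons, and every skipped exon event listed for them was taken. An event is an exon that is either joined to both neighbours (included) or left out (skipped), and its reads are those that span the splice junctions. The genes had 70 of the 65601 events of the table. With a minimum of 20 junction reads as the mean over the 4 libraries, 65 of these were kept, on 52 exons, out of 54503 events in all. The event just inside the minimum, in MEF2A, had a mean of 22.25 reads, and the event just outside it, also in MEF2A, had 14 reads.

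The study asked how splicing differs when the small nucleolar RNA SNORD89 is depleted. Per the labels, 2 libraries came from 293T cells transfected at 70 nM with an antisense oligonucleotide (ASO) of the gapmer type that targets SNORD89, and 2 from 293T cells with the treatment given as none; no control oligonucleotide is named. The transfection protocol stands on the labels of all 4 libraries, so whether the cells without ASO received the lipid reagent is not clear. Medium was changed at 24 hours and RNA taken at 48 hours, and poly(A) RNA was sequenced as read pairs of 150 bases. The table has a first and a second set of 2 libraries, and neither its header nor the labels say which set is the ASO-treated one. Directions are therefore given as first set against second set, and libraries by their place in a set, which pairs nothing across sets. The labels number the replicates 1 and 2 without naming separate cultures, so p-values cover the spread between these libraries only.

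The 9 proteins act in different programmes. MEF2A and MEF2D are MADS-box factors of muscle and neuronal genes, and NFYA is the subunit of NF-Y that contacts the CCAAT box of many promoters. TCF3 and TCF12 are E proteins, basic helix-loop-helix factors that bind E-box DNA as dimers, and TEAD1 is the DNA-binding partner of the Hippo pathway coactivator YAP1. FOXM1 drives genes of late cell cycle, REST silences neuronal genes in other cells, and NRF1 controls nuclear genes of mitochondrial respiration. An alternative exon whose length is a multiple of 3 leaves the reading frame intact when it is skipped, so that a protein with or without a short segment is made.

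The exons that carry these choices are shown first, as sequences of GENCODE release 29 transcripts on GRCh38 to which the events were matched by exon and intron lengths. Each is written 5′ to 3′ on the coding strand, with the exon in capitals and 10 bases of the joined neighbour exons on each side in lower case. The first group holds 7 of the 8 coding exons with a length divisible by 3 and a mean inclusion level under 0.5. By their length they keep the reading frame when skipped, and most were rarely included in these cells.
NFYA 87-nt exon: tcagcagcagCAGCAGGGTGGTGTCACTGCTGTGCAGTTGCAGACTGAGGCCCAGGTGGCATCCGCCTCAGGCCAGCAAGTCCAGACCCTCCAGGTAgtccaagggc
FOXM1 45-nt exon: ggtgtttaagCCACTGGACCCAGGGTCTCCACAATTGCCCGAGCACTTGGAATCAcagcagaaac
TEAD1 12-nt exon: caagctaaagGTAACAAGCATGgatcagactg
TCF12 72-nt exon: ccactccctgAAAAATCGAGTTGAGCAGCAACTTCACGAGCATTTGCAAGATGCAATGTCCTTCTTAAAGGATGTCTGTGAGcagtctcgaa
MEF2A 24-nt exon: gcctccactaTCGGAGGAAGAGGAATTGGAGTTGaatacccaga
MEF2D 21-nt exon: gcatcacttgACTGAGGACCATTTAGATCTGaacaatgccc
NRF1 57-nt exon: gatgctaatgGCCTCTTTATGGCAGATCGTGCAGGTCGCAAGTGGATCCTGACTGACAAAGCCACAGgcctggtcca

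TCF3 has a pair of mutually exclusive exons, each encoding the basic helix-loop-helix region, which give the E12 and E47 proteins. The E47 exon is shown because the split between the forms is described further on.
TCF3 E47 exon, 227 nt: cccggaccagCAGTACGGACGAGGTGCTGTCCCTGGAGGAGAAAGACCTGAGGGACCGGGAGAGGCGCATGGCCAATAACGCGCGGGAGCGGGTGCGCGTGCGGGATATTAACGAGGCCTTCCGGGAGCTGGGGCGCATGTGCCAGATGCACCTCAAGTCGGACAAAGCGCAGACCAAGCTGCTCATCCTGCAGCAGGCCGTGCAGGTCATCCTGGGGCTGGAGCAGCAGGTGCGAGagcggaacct

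The last sequences are the exons for which the authors' test and a difference in inclusion level of at least 0.1 gave a call, described further on.
MEF2A 127-nt exon: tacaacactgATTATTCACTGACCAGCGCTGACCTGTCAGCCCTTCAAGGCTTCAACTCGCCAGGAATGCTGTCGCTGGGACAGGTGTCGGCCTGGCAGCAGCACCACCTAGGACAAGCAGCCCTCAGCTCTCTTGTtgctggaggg
TEAD1 174-nt exon: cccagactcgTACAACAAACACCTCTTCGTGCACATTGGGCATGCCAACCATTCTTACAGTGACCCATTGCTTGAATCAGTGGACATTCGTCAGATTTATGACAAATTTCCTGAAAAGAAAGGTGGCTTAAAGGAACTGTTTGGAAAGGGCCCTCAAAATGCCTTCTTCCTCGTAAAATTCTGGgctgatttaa

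Most events of these genes were included almost always. Of the 65, 35 (53.8%) had a mean inclusion level above 0.95, against 66.1% of all tested events. Another 11 (16.9%, against 9.3%) lay under 0.05, and 19 lay between. By the annotation match, 46 events were on coding exons, 7 on partly coding exons, 6 on exons in untranslated regions and 5 on exons of non-coding transcripts, and 1 was not matched. The 95% intervals given below are Wilson intervals and cover counting error only. Coordinates are those of the table, in hg19 with 1-based starts.

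The short exon of NFYA separates its long and short forms, which differ in the glutamine-rich activation region. It lies at 41048550 to 41048636 on chromosome 6 (ENSG00000001167.10, plus strand). Its inclusion level was 0.266 (0.215–0.324) and 0.169 (0.122–0.228) in the first set, from 211 and 144 reads. The libraries of the second set gave 0.289 (0.211–0.381) and 0.419 (0.315–0.531), from 92 and 75 reads. Both libraries of the second set were higher than both of the first, but the gap of 0.266 to 0.289 was smaller than the spread within either set. The authors' deposited table puts the difference at -0.136 with p = 0.0177 (FDR 0.164), so the event was not called. The quasi-binomial model, whose error is the scatter between libraries, gave p = 0.124 (adjusted 0.847). The inclusion level was under 0.5 in each of the 4 libraries, so the form without the exon prevailed. A partly coding NFYA exon of 136 nt at 41046768 to 41046903 was at 0.952, 0.985, 1 and 1, with 9, 2, 0 and 0 skipping reads. Both libraries of the second set lacked skipping reads, and the authors' deposited table lists -0.032, p = 0.0143 (FDR 0.141).

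FOXM1 has alternative coding exons of 45 and 114 nt. The form with the 114-nt exon is known as transcriptionally inactive. The 45-nt exon lies at 2974521 to 2974565 on chromosome 12 (ENSG00000111206.8, minus strand). In its deepest event its inclusion level was 0.496 (0.451–0.541) and 0.381 (0.343–0.421) for the first set against 0.377 (0.333–0.423) and 0.414 (0.375–0.455) in the second, from 420 to 564 reads. Library 1 of the first set stood above the other 3, and the sets overlapped. In the authors' deposited table the difference was 0.043, with p = 0.335 (FDR 1). The exon also appears in 2 shallower events with other neighbours, which share junction reads with the deepest one. With the neighbour beginning at 2977729 it was at 0.956, 0.865, 0.691 and 0.904, and the authors' deposited table lists a difference of 0.113 (FDR 0.379). With the neighbour ending at 2973921 it was at 0.953, 0.857, 0.928 and 1, from 107 to 165 reads. For that event the authors' deposited table lists -0.059, p = 0.0103 (FDR 0.112), and the quasi-binomial p was 0.253. Without library 2 of the first set, the lowest of the 4, the difference was -0.0109.

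The 114-nt exon of FOXM1 was rarely included. Its level was 0.0756 (0.0595–0.0957) and 0.0497 (0.0362–0.0678) in the first set, against 0.0497 (0.0348–0.0705) and 0.0773 (0.0600–0.0991) in the second, from 355 to 523 reads. Each set held 1 higher and 1 lower library, and the authors' deposited table lists -0.001 (FDR 1). By these reads most FOXM1 transcripts lacked the 114-nt exon in all 4 libraries.

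In TCF3 (ENSG00000071564.10, minus strand of chromosome 19) the E47 exon lies at 1612206 to 1612432, next to the E12 exon. One readout of the choice is a pair of junctions, each used by 1 of the exons only: from the E12 exon to the exon that follows the pair, and from the exon before the pair to the E47 exon. The E47 exon has a further acceptor site at 1612429, whose reads were derived by subtraction between events that share their other junction. With both acceptor sites counted, the E12 junction took 387 of 755 reads (51.3%, 47.7–54.8%) and 326 of 665 (49.0%, 45.2–52.8%) in the first set. In the second it took 376 of 738 (50.9%, 47.3–54.5%) and 469 of 934 (50.2%, 47–53.4%). The junction shares were thus near even in every library, and all 4 intervals overlapped. They set the 3′ end of the E12 exon against the 5′ end of the E47 exon, so they do not give the ratio of the forms. With the exon before the pair as neighbour, the E47 exon had 813, 790, 799 and 989 inclusion reads. Of these, 307, 294, 304 and 400 joined it to that exon. The rest, which joined it to the exon after the pair, outnumbered the E12 junction reads in every library. With the main acceptor site alone the E12 junction shares were 55.8%, 52.6%, 55.3% and 54.0%, so the share also depends on counting the further site. This share was chosen after the data were seen, and 2 libraries against 2 cannot give an exact permutation p under 0.333, so no test was run on it. Skipping of both exons was rare: the join of the exon before the pair to the exon after it had 2, 4, 8 and 0 reads.

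In the deepest event of the E47 exon, with the E12 exon as neighbour, its level was 0.413, 0.450, 0.414 and 0.394, from 860 to 1079 reads. The sets overlapped, and the authors' deposited table lists 0.027 (FDR 1).

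Reads that join both TCF3 exons in 1 transcript were also few. With the E47 exon as its neighbour, the 231-nt version of the E12 exon was at 0.0654 (0.0485–0.0878) and 0.0681 (0.0505–0.0914) in the first set. Levels in the second set were 0.0574 (0.0415–0.0787) and 0.0256 (0.0167–0.0390), from 337 to 421 reads over all libraries. Library 2 of the second set was the lowest. The authors' deposited table puts the difference at 0.025, p = 0.00685 (FDR 0.0851), and lists 0.019 (p = 0.0441, FDR 0.304) for a 201-nt version that shares the skipping reads. Both versions also share the join of the E12 exon to the E47 exon, which gives most of their inclusion reads. Their differences are therefore largely the same measurement. The 201-nt version was at 0.0711, 0.0652, 0.0689 and 0.0291. The quasi-binomial p for the 231-nt version was 0.123.

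A further choice in TCF3 lies nearer its 5′ end. The exon of 79 nt at 1632037 to 1632115 was at 0.610 (0.553–0.663) and 0.635 (0.571–0.694) in the first set, and at 0.574 (0.508–0.638) and 0.472 (0.412–0.531) in the second, from 242 to 339 reads. The sets did not overlap, with library 2 of the second set again the lowest. In the authors' deposited table the difference was 0.1, with p = 0.0263 (FDR 0.214), and the quasi-binomial p was 0.0954. A 166-nt version with the same end, which shares the skipping reads, was at 0.248, 0.308, 0.233 and 0.181. The authors' deposited table lists 0.071 for it (p = 0.0423, FDR 0.295). Without library 2 of the second set the difference of the 79-nt exon was 0.0482. Hardly any read joined either version to the neighbour at 1646354: that join had 0, 1, 0 and 0 reads, as counted in the event of the exon at 1632331 to 1632404. The inclusion reads thus come from the join to the exon ending at 1627425. The levels are therefore not the share of transcripts with the exon.

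TCF12, the other E protein, has a 72-nt coding exon at 57544619 to 57544690 on chromosome 15 (ENSG00000140262.13, plus strand). It was at 0.0649 (0.0387–0.107) and 0.0335 (0.0162–0.0680) in the first set, from 150 and 143 reads. Values of the second set were 0.0777 (0.0301–0.186) and 0 (0–0.0939), from 36 and 25 reads. The library at 0 had 25 reads in all, so its interval covers the level of the other 3. The authors' deposited table lists 0.011 (FDR 1). A 140-nt coding exon of TCF12 at 57524489 to 57524628 was at 1 in 3 libraries and at 0.917 (0.852–0.955) in library 2 of the first set. Its difference of -0.041 had p = 0.0299 (FDR 0.234) in the authors' deposited table, and was 0 without that library.

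The beta exons of the MEF2 genes, short acidic segments known to be included in muscle and brain, were nearly always skipped. The 24-nt exon of MEF2A (ENSG00000068305.13, plus strand of chromosome 15, 100243567 to 100243590) was at 0 (0–0.0311) and 0.0122 (0.00215–0.0658) in the first set. The second set was at 0.0904 (0.0310–0.236) and 0 (0–0.0782), from 29 and 39 reads. Library 1 of the second set rested on 3 inclusion reads, and the authors' deposited table lists FDR 1. The 21-nt exon of MEF2D (ENSG00000116604.13, minus strand of chromosome 1, 156446286 to 156446306) was at 0.0229, 0, 0.0183 and 0 from 48 to 115 reads, and the upper limits of its intervals ran from 0.0381 to 0.0968.

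In MEF2D the 138-nt alternative exon at 156450626 to 156450763 was included at 0.913 (0.855–0.949) and 0.953 (0.886–0.981) in the first set. The libraries of the second set gave 0.862 (0.777–0.918) and 0.928 (0.865–0.963), from 156 to 254 reads over all libraries. The sets overlapped, and the authors' deposited table lists 0.038 (FDR 1). The neighbouring 135-nt exon of MEF2D had a mean of 11 reads and fell under the minimum. An untranslated exon of 129 nt at 156469224 to 156469352 was at 0.0310 and 0.127 in the first set and at 0.0170 and 0 in the second, from 71, 61, 32 and 14 reads. It carried FDR 0.0246 in the authors' deposited table, but at a difference of 0.071, under the size needed for a call, and a quasi-binomial p of 0.217. Without library 2 of the first set its difference was 0.0225.

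REST, NRF1 and TEAD1 also have small exons with few inclusion reads. The 50-nt exon of REST (ENSG00000084093.11, plus strand of chromosome 4, 57793781 to 57793830) is known as exon N, which in neurons gives a truncated protein. It was at 0 (0–0.0457) and 0.0379 (0.0104–0.129) in the first set, from 60 and 40 reads. Levels in the second set were 0 in both libraries from only 3 and 6 reads, with upper limits of 0.489 and 0.324, so a difference was not detectable at this depth. The 57-nt exon of NRF1 (ENSG00000106459.10, plus strand of chromosome 7, 129384013 to 129384069) was at 0.00636 and 0.0460 in the first set and at 0 in both libraries of the second, from 80 to 114 reads, and the authors' deposited table lists FDR 1.

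The 12-nt exon of TEAD1 (ENSG00000187079.10, plus strand of chromosome 11, 12900436 to 12900447) adds 4 codons. It was at 0.190 (0.119–0.292) and 0.0600 (0.0166–0.195) in the first set, from 74 and 31 reads. Values of the second set were 0.117 (0.0208–0.452) and 0 (0–0.262), from 8 and 10 reads. The sets overlapped. The authors' deposited table puts the difference at 0.067 with p = 0.00338 (FDR 0.0518), and without library 1 of the first set the difference was 0.00161.

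**Figure D1:**
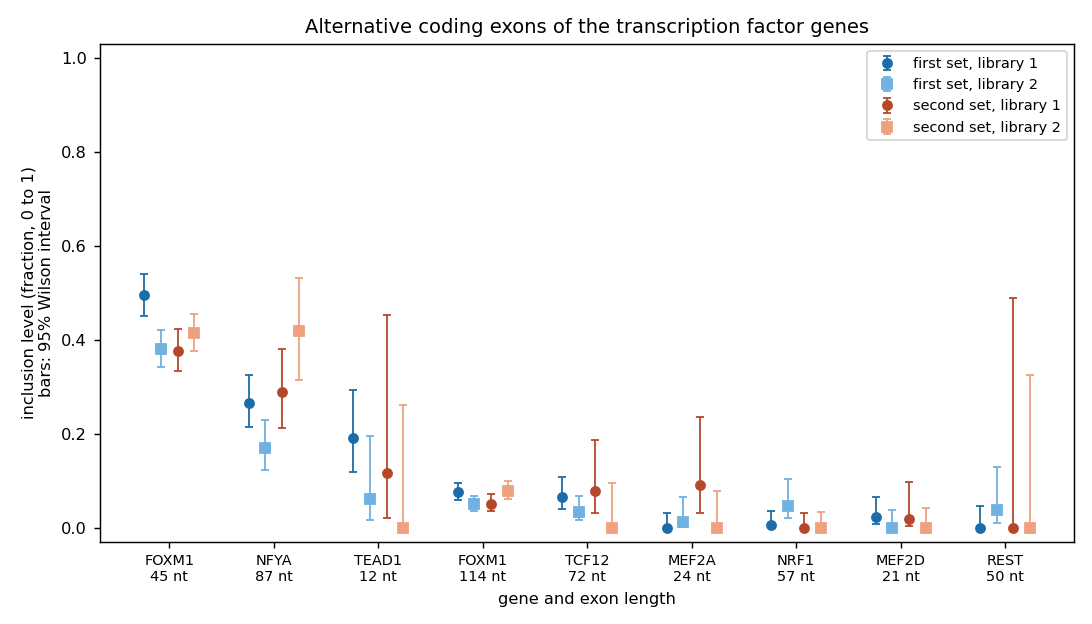
Inclusion level (fraction, y axis) of 8 coding exons with a length divisible by 3 and of the 50-nt exon of REST (x axis, by gene and length), one point per library with its 95% Wilson interval. FOXM1 45 nt and NFYA 87 nt sit between 0.169 and 0.496, and the other exons at or under 0.190 in all 4 libraries.

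Of the 65 events, 2 were called at an FDR under 0.05 and a difference of at least 0.1 in the authors' deposited table, 1 higher (background 1.34%) and 1 lower (background 1.37%) in the first set. That is 3.08% of these events, against 2.71% of all tested events, so the share lay near the background. An FDR under 0.05 alone was given to 3 events, against 5.72% of all tested events, and a p under 0.05 to 16 (24.6%, against 14.3%). With the spread between libraries as error, the quasi-binomial model called 0 of the 65 and 0 of all tested events. Its unadjusted p was under 0.05 for 2 events, against 2.57% of all tested events. A limma fit of the log2 ratios gave 0 as well, with 4 events at an unadjusted p under 0.05, against 4.54% of all. The limma count carries no information, since that test was blind at this sample size to large changes put into artificial reads. The quasi-binomial count depended on how its dispersion was moderated: of 7 versions tried, 6 called none of the 65, and the version that raised dispersions to 1 before moderation called the MEF2A exon below (adjusted p = 0.0198).

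The called exon of MEF2A, at 100250839 to 100250965, is a coding exon of 127 nt, so leaving it out shifts the reading frame. In the event with the coding exon ending at 100247060 before it, its level was 0.992 (0.954–0.999) and 1 (0.944–1) in the first set, from 218 and 119 reads. The second set was at 0.862 (0.721–0.938) and 0.433 (0.271–0.612), from 63 and 29 reads. Both libraries of the second set were lower, and library 2, with 17 inclusion and 12 skipping reads, lay far under library 1. The authors' deposited table puts the difference at 0.349, p = 3.26e-08 (FDR 1.91e-05). The quasi-binomial p was 0.00273 (adjusted 0.847). Without library 2 of the second set the difference was 0.133.

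The same MEF2A exon was read differently with another neighbour. In the event that skips it together with the preceding 127-nt exon, 3 libraries had no skipping reads and library 1 of the first set had 6, for levels of 0.904, 1, 1 and 1. The authors' deposited table gives that event a difference of -0.048, with p = 0.0263 (FDR 0.214). The skipping reads of the called event join the preceding exon directly to the following one, a junction found in no GENCODE release 29 transcript of the gene. The preceding exon, at 100246934 to 100247060, was itself at 0.891, 1, 1 and 1 in the event that shares those 6 skipping reads. Its difference was -0.054 in the authors' deposited table (p = 0.0176, FDR 0.163), and 0 without library 1 of the first set.

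A further MEF2A event with a difference above 0.1 was in the 5′ untranslated region. The 82-nt exon at 100138635 to 100138716 was at 0.793 (0.701–0.863) and 0.855 (0.749–0.920) in the first set, from 125 and 91 reads. The libraries of the second set gave 0.646 (0.426–0.818) and 0.629 (0.434–0.789), from 23 and 29 reads. The sets did not overlap, and the libraries of each set lay close together, but the wide intervals of the second set reached those of the first. In the authors' deposited table the difference was 0.187, with p = 0.0241 (FDR 0.202), and the quasi-binomial p was 0.186. With the preceding exon ending at 100105874 instead, the same exon was at 0.912, 1, 1 and 1, from 34, 36, 7 and 12 reads. The authors' deposited table lists a difference of -0.044 for that event, in the other direction.

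The called exon of TEAD1 is a coding exon of 174 nt at 12923487 to 12923660. Its level was 0.977 (0.921–0.994) and 0.769 (0.661–0.851) in the first set (173 and 115 reads), against 1 (0.510–1) and 1 (0.835–1) in the second, from 8 and 39 reads. Library 2 of the first set, with 15 skipping reads, was the low one, and library 1 of that set lay within the intervals of the second set. The authors' deposited table lists -0.127 (FDR 0.0161), and the quasi-binomial p was 0.271. Without library 2 of the first set the difference was -0.0229, under the size of a call.

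The 141-nt coding exon that follows it, at 12946459 to 12946599, had the second largest difference above 0 among the 65 events, 0.301, with p = 0.0400 (FDR 0.285) in the authors' deposited table. Its level was 0.972 and 0.940 in the first set, against 0.310 (0.145–0.544) and 1 (0.595–1) in the second, from 15 and 11 reads. The sets overlapped. The quasi-binomial p was 0.0219 (adjusted 0.847), 1 of the 2 under 0.05 among these events, and was 0.00567 at a difference of 0.646 without library 2 of the second set. Without library 1 of that set, the low one, the difference was -0.0440. In the untranslated 153-nt exon of TEAD1 at 12696956 to 12697108, no read fell in library 2 of the second set. Its difference of -0.164 in the authors' deposited table (FDR 1) rests on 1 library of that set with 11 reads.

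NRF1 held the event with the largest difference under 0, also on few reads. An exon of 91 nt at 129269919 to 129270009, found only in a non-coding transcript, was at 0.332 (0.191–0.511) and 0.204 (0.0981–0.375) in the first set. Levels in the second set were 0.264 (0.148–0.426) and 0.841 (0.576–0.954), from 30 and 19 reads. Library 2 of the second set stood apart from the other 3. The authors' deposited table lists -0.284 (FDR 0.577), and without that library the difference was 0.00332.

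**Figure D2:**
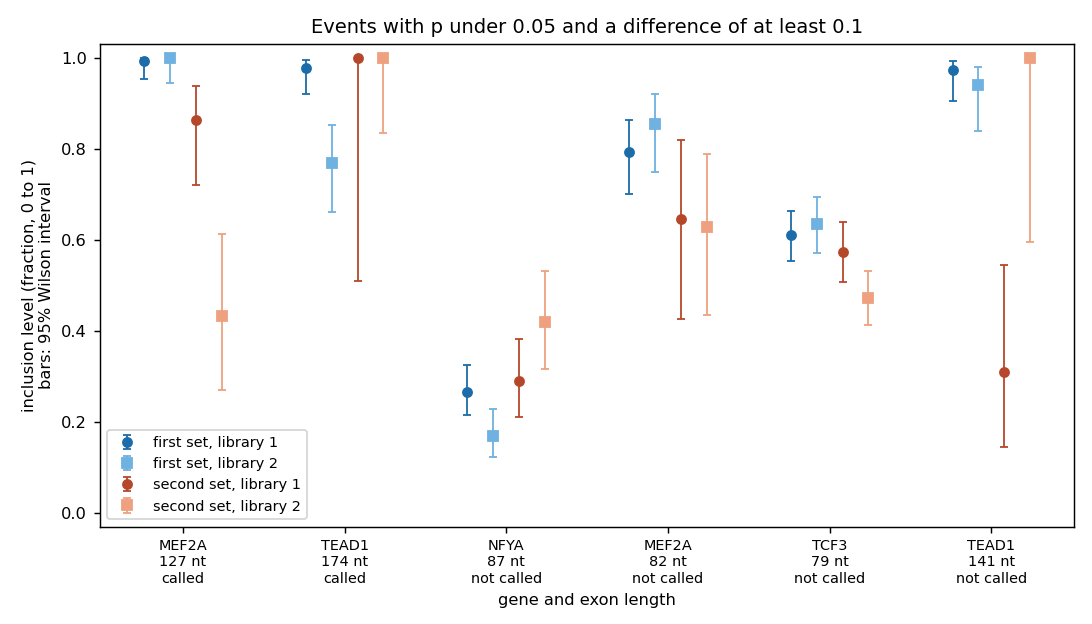
Inclusion level (fraction, y axis) in each library with its 95% Wilson interval for the 6 events with p under 0.05 and an absolute difference of at least 0.1 in the authors' deposited table (x axis). In MEF2A 127 nt, TEAD1 174 nt and TEAD1 141 nt, 1 library lies far from the other 3, at 0.433, 0.769 and 0.310.

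Over the 63 events with reads in all 4 libraries, the sets did not overlap in 18 (28.6%), against 22.8% of all tested events. Of the 18, 9 lay higher and 9 lower for the first set. Among the 54355 tested events with reads in all 4 libraries, 5065 (9.32%) lay higher without overlap and 7352 lower. The median absolute difference was 0.022, against 0.011 for all tested events, and the median difference was -0.001, against -0.002. A difference of at least 0.1 was seen in 9 of 65 events (13.8%), against 7.19% of all tested events. However, fewer of these events lay above 0.95 (53.8% against 66.1%), where such a difference has little room. Among events with a mean inclusion level of 0.05 to 0.95, 2 of 19 were called, against 11% of all such events. By gene, TCF12 and REST had no event in which the sets did not overlap, and in NFYA all 3 events were separate and lower in the first set. In TCF3 the differences of the 15 events ran from -0.01 to 0.1, and in FOXM1 those of the 13 events from -0.059 to 0.113. They ran from -0.054 to 0.349 in the 8 events of MEF2A and from -0.164 to 0.301 in the 5 of TEAD1. TCF12 and REST, with ranges from -0.041 to 0.022 and from -0.034 to 0.019, had the narrowest ranges. All events of both genes had a mean inclusion level above 0.95 or under 0.05, where a difference has little room.

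**Figure D3:**
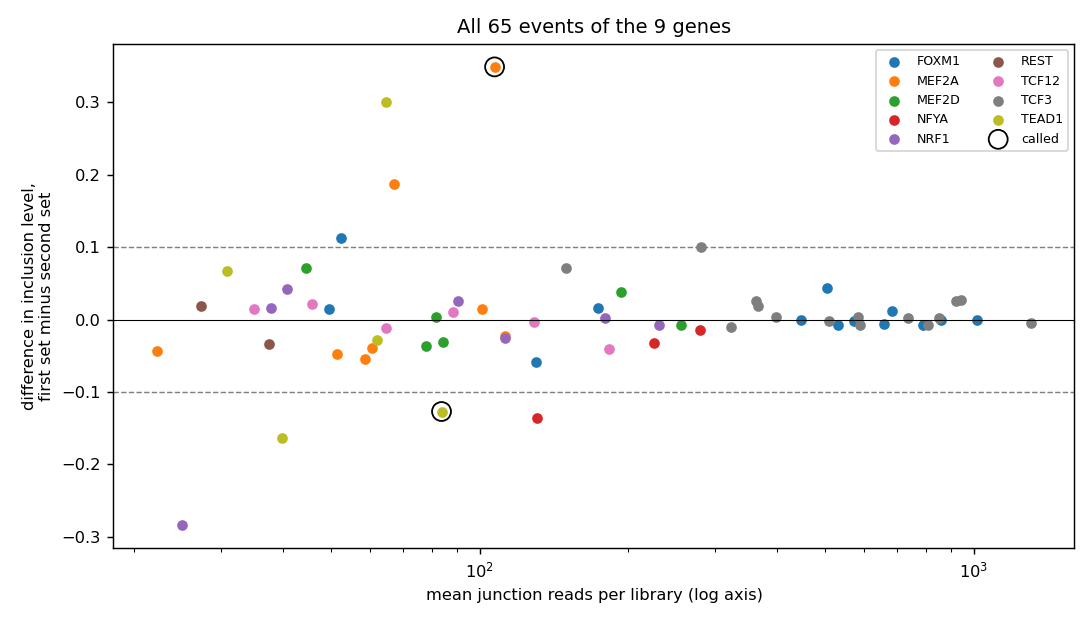
Difference in inclusion level, first set minus second set (y axis), against mean junction reads per library (x axis, log scale) for the 65 events, coloured by gene, with the 2 called events circled and dashed lines at 0.1 and -0.1. The 9 events at 0.1 or more from 0 have between 25 and 281 mean reads, while the x axis reaches 1305.5.

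Reads of the rarer form were missing more often in the second set. Among these events, 11 of 65 (16.9%) and 17 of 65 (26.2%) had reads of 1 form only in the first set. In the second set the counts were 28 of 65 (43.1%) and 46 of 63 (73.0%). Over all tested events the shares were 30.9%, 33.8%, 39.9% and 61.2%. The median reads per event of these genes were 196, 151, 92 and 110, against 222, 199, 157 and 171 over all tested events. Summed over the whole table, the second set held more junction reads, 42868431 and 43929373 against 38613055 and 39012939 in the first. The part of depth per event in the differences above was not tested.

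**Figure D4:**
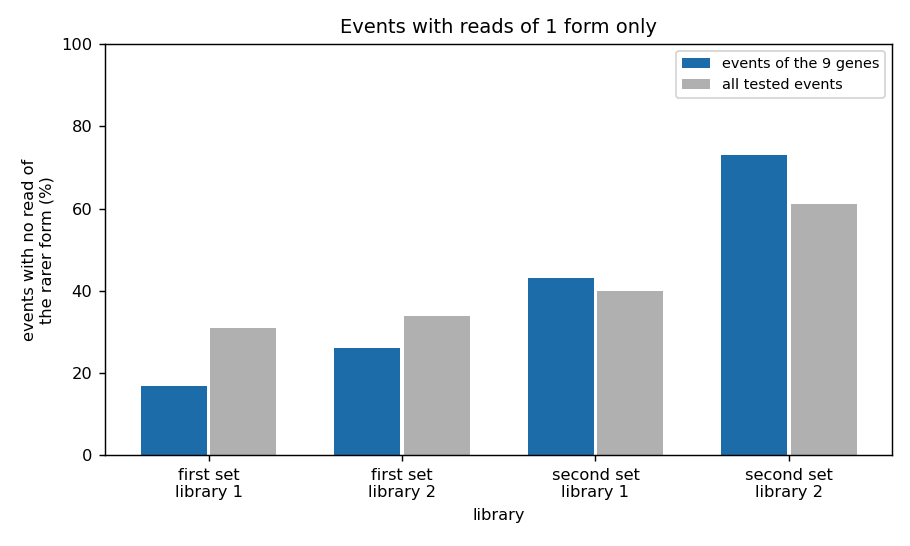
Share of events (y axis, percent) with no read of the rarer form in each library (x axis), for the events of the 9 genes and for all tested events. The share is highest in library 2 of the second set, at 73.0% and 61.2%.

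The number of junction reads itself differed between the sets for 5 of the 9 genes, counting REST, which is set apart below. Reads were summed over the events of a gene, in which a junction can count more than once, scaled by the median ratio to the other genes, and tested by limma over 9524 genes. This comparison was chosen after the data were seen. By limma, MEF2A, NFYA, REST, TCF12 and TEAD1 had more reads in the first set at an adjusted p under 0.05, and 0 of the 9 had fewer, with MEF2D, NRF1, FOXM1 and TCF3 not passing. Over all genes 22.3% were higher and 21.4% lower in the first set, so differences of this kind were common in these libraries. In bulk RNA, fewer cells that express a gene and less RNA per cell cannot be told apart.

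TEAD1 had 17.0 and 8.97 junction reads per 1000000 for the first set against 1.31 and 1.91 in the second, a 4.93-fold difference after scaling (log2 2.30, SE 0.29, limma adjusted p = 1.39e-05). For REST the values were 3.83 and 2.46 against 0.210 and 0.137, from 148, 96, 9 and 6 reads (log2 2.20, SE 0.38). REST passed the minimum of 50 mean reads only through the first set, so it had to differ, and its log2 difference was 1.10 with a pseudocount of 2 in place of 0.5 reads per 1000000. In TCF12 they were 25.7 and 19.1 against 4.04 and 6.15 (log2 1.69, SE 0.22, limma adjusted p = 1.97e-05). For TEAD1 and TCF12 every library of the first set was above every library of the second, and their differences ranked at percentile 99.8 and 98.6 of all genes.

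MEF2A had 28.2 and 17.4 junction reads per 1000000 against 7.16 and 6.97 (log2 1.22, SE 0.21, limma adjusted p = 0.000237). NFYA had 25.6 and 18.9 against 10.1 and 8.67 (log2 0.83, SE 0.20, limma adjusted p = 0.00252), and its adjusted p was 0.0958 without library 1 of the first set. MEF2D, the paralog of MEF2A, gave no call. MEF2D had 24.2 and 19.3 against 14.9 and 16, with a limma adjusted p of 0.657. FOXM1 had 190, 174, 117 and 154 junction reads per 1000000 and TCF3 had 241, 223, 192 and 234, with limma adjusted p-values of 0.733 and 0.124. For NRF1 the values were 21.6, 18.9, 16.7 and 14.5. Scaling to the library totals shifted the median of all genes by 0.35 on the log2 scale toward the first set, with 39.7% of genes then higher and 3.96% lower, and under it FOXM1 passed as well (limma adjusted p = 0.00836), while TCF3 turned from -0.24 to 0.13. The called events of MEF2A and TEAD1 thus lay in genes with 2.33-fold and 4.93-fold more junction reads in the first set, and the part of this in the calls was not tested.

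**Figure D5:**
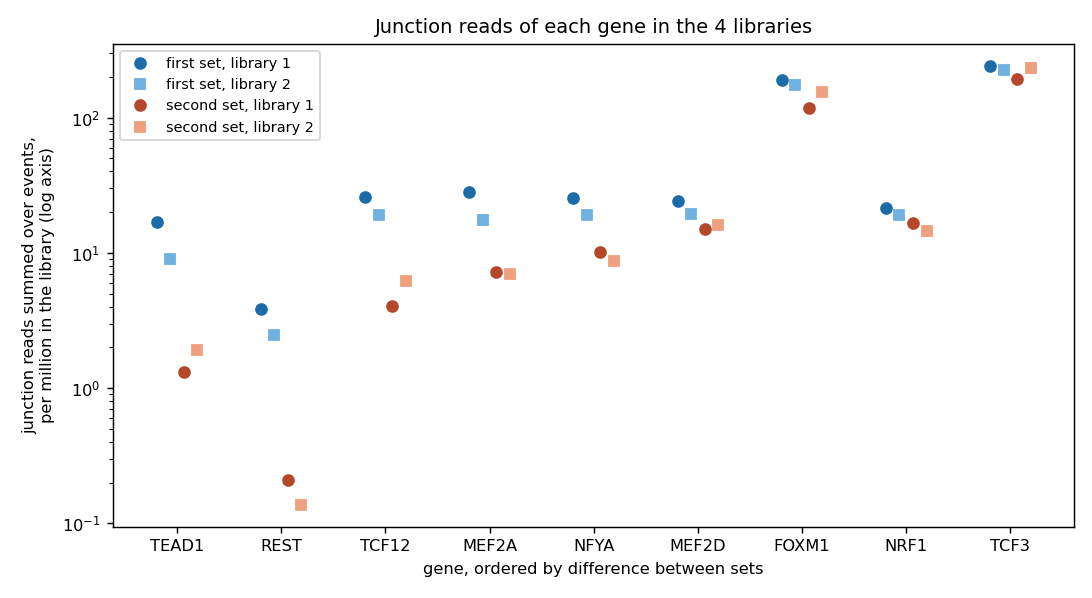
Junction reads summed over the events of each gene, per 1000000 junction reads of the library (y axis, log scale), one point per library, with the genes ordered by their scaled difference between sets (x axis). On this scale, before the median-ratio scaling, both points of the first set lie above both of the second in every gene but TCF3, with the widest gaps in TEAD1, REST and TCF12. REST met the read minimum only through the first set.

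Related genes were counted in the same way: 43 paralogs, partners and cofactors of these factors, of which 33 had an event past the read minimum. Of their 214 events, 8 (3.74%) were called, against 2.71% of all tested events, with 4 higher (background 1.34%) and 4 lower (background 1.37%) in the first set. The share lay near the background, and the group counts that follow are too small to read against it. The median difference was -0.0035, against -0.002 for all tested events. The MEF2 group (other MEF2 genes and class IIa deacetylases) had 2 called of 37 events, both on 1 exon of MEF2B that begins at 19257082 on chromosome 19. Its 112-nt version was at 0.811 and 0.746 for the first set against 0.594 and 0.237 in the second, from 34 to 57 reads, listed by the authors' deposited table at 0.363 (FDR 0.0398).

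The TEAD group had 1 called of 36 events, in YAP1, the coactivator that TEAD1 binds. The 114-nt exon of YAP1 at 102056749 to 102056862 on chromosome 11 was at 0.802 (0.733–0.856) and 0.857 (0.777–0.911) in the first set. It was at 1 (0.895–1) and 1 (0.872–1) in the second, from 58 and 46 reads, listed by the authors' deposited table at -0.17 (FDR 5.27e-05). The sets did not overlap and the quasi-binomial p was 0.0195. In the REST group 1 of 18 events was called, on a 96-nt exon of the corepressor gene RCOR3 at 211441117 to 211441212 on chromosome 1. It was at 0 and 0.0302 for the first set against 0.121 and 0.154 in the second, from 26 to 54 reads, listed by the authors' deposited table at -0.123 (FDR 0.00302).

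The E protein group had 1 called of 3 events, in TCF4, at 0.930 and 0.826 for the first set against 1 and 1 in the second, the last from 6 reads. The authors' deposited table lists -0.122 (FDR 0.0246). Among forkhead genes and the MuvB partners of FOXM1, 2 of 66 events were called. In LIN9, a MuvB subunit, a 105-nt exon was at 0.686 and 0.651 for the first set against 0.762 and 0.924 in the second, listed by the authors' deposited table at -0.174 (FDR 0.0261). In FOXK1 and in PPRC1, a coactivator gene of the NRF1 group with 1 called of 32 events, the sets overlapped and library 2 of the second set was the low one, at 0.711 and 0.761. The NF-Y group had 0 called of 22 events by the same rule.

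Facts of the libraries as a whole were as follows. They held between 38613055 and 43929373 junction reads, summed over events that can share a junction. Of markers fixed for the kidney line, PAX2, CDH2 and VIM had events, with summed levels between 124 and 140 junction reads per 1000000. The sum is mostly VIM, at 99.9 and 101 in the first set against 118 and 127, while CDH2 went the other way, at 30 and 21.9 against 7.7 and 11.6. CDH2 was thus lower in the second set beside TEAD1, TCF12 and MEF2A, and its part in those differences was not tested. Muscle markers summed to between 1.26 and 2.41 and neuron markers to between 0.569 and 1.29. KRT18, TTN, DES, SNAP25, PTPRC and CD3E have no event in the table, so they were not checked, and neither was SNORD89.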

How the data were processed

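The data are 1 comparison table of skipped exons in the layout of rMATS, per the file headers, from 2 libraries of 293T cells given the SNORD89 ASO and 2 given none. The submitters' processing notes name hg19, STAR and cutadapt; versions and the annotation are not given in the sources used here. Per the file headers, the deposited table gives junction read counts of each form per library, the inclusion level as a fraction (reads divided by form length), a p-value and FDR per event, the difference of the set means as a score from -1 to 1, and form lengths. Recomputing the levels gave at most 0.0005 of deviation from the deposited values.

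Calls needed a deposited FDR under 0.05 and a difference of 0.1 or more either way, with a mean of at least 20 reads. Over all 54503 tested events, inclusion against skipping reads were fitted by a quasi-binomial model whose dispersion squeezeVar (limma 3.58.1, R 4.3.3) moderated on a trend with read depth, and limma on the log2 ratio with a pseudocount of 0.5 was an alternative; p-values were Benjamini-Hochberg adjusted. The design fixed only that squeezeVar be used with a floor of 1, and 7 forms of its prior were tried. The form used was chosen for its recovery and few false calls on simulated reads, after the first form tried and 1 other had been run on these data and the first form's p-values for the 9 genes seen; all 7 were later run on the table. In simulation the form used found 193 of 200 changes of 0.3 with binomial noise (2.53% of calls false) and 40 with the scatter measured between libraries (0 false). The others found 0 to 194 and 0 to 105, the 105 among 1179 calls. On the table, 6 forms called 0 events and that last form called 64. The limma test found 0 of 200 under either noise. Gene sums with a mean of at least 50 reads were tested by limma on log2 values with a pseudocount of 0.5 reads per 1000000; in simulation over 9524 genes this found 191 of 200 genes changed 2-fold, with 8.17% of calls false.

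Events were matched to GENCODE release 29 by exon and intron lengths (64 of 65, 50 by both introns); no position was converted between builds. Described singly were called events, events with p under 0.05, the deepest partly included event of each gene and known alternative exons, and the others by ranges and counts. For related genes, called events are named. The members and lists were chosen with earlier results of these data known. Some exon sequences are not reported here.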

Additional observations from a re-analysis of the deposited data

How the results depend on the processing

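The 2 calls among the 9 genes became 1 at a difference of at least 0.2 and 1 at an FDR under 0.01, and 3 at a difference of at least 0.05. With each library left out in turn, 1 to 2 kept a difference of at least 0.1; the lost one was the TEAD1 174-nt exon without library 2 of the first set. Calls in related genes went from 8 to 4 with 50 or more mean reads, 2 at a difference of at least 0.2 and 2 at an FDR under 0.01, and 5 to 8 were kept with a library left out, the fewest when library 2 of the second set was dropped. Over all events the 1477 calls became 719 with 50 or more mean reads, 2559 with no read minimum, 2499 at a difference of at least 0.05, 525 at a difference of at least 0.2 and 748 at an FDR under 0.01, and 1002 to 1418 were kept with a library left out. The quasi-binomial count of 0 among the 9 genes was 1 when dispersions were raised to 1 before moderation, a form added after the data were seen. It was 0 under the other settings run, which says nothing about stability, since limma and some forms of the prior had no power in simulation and leaving out a library leaves a set with 1. The 5 genes that differed in junction reads were 6 when scaled to library totals and 4 to 5 with a library left out, in alternatives chosen after the data were seen. For 24 events, 129 values under other settings stayed within the spread between libraries and 14 moved further. Most of these values leave a library out, which shifts a set mean by an amount fixed by the gap within that set. Staying within the spread therefore says little about stability. The TEAD1 exon at 12946459 to 12946599 went from 0.301 to -0.044 without library 1 of the second set. The NRF1 exon at 129269919 to 129270009 went from -0.284 to 0.00332 without library 2 of that set. Both were counted as within the spread. The 2 called events kept their sign. No paired analysis was possible because the table's columns carry no replicate numbers. Depth limits REST, TEAD1 and TCF12 most, with medians of 3 to 27 reads per event in the second set.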
